A study of Drosophila melanogaster with 4 samples.

Results

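miR-306 is a microRNA (miRNA) of the fruit fly Drosophila melanogaster whose hairpin yields a 5p arm and a 3p arm. Its reads were followed in 4 small RNA libraries from heads of wild-type male flies of the genotype labelled 5905, raised at 25 °C. The 4 groups, of 1 library each, were 30-day-old flies with oxidation and β-elimination of the RNA, 30-day-old flies without it, 3-day-old flies with it and 3-day-old flies without it. All groups share genotype, sex, tissue and rearing, and the labels do not say how many flies were pooled for a library. A read was counted as miR-306 when it overlapped a mature arm without mismatch over at least 15 nt and was 16 to 24 nt long. This took 42 of the 5550 distinct sequences in the deposited tables, 28 from the 5p arm and 14 from the 3p arm. The reads were divided into 481 arms in all, of which miR-306 supplied 2. miR-306 was selected on the shares and oxidation ratios of its short 5p reads in these libraries, so these values are described and not tested. No read overlapped an arm by exactly 15, 14 or 13 nt. Since reads were at least 16 nt long, only reads running past an end of an arm could have done so. The overlap limit was thus hardly tested by this count. The shortest read in each library was 16 nt, so forms shorter than that could not be seen, and shares and mean lengths leave them out.

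A miRNA hairpin is cut into a duplex of both arms, 1 strand of which is kept in an Argonaute protein and guides it to messages through the seed, the bases near its 5′ end. In flies most miRNAs work in AGO1, where the exonuclease Nibbler shortens the 3′ ends of some of them, whereas small RNAs held by AGO2 receive a 2′-O-methyl group on the last ribose from the methyltransferase Hen1. Periodate oxidation followed by β-elimination spoils unmethylated 3′ ends for adapter ligation, so methylated RNAs gain share in an oxidized library. In the fly testis miR-306 is known, with miR-275, as a regulator of bag of marbles, a gene that drives germ cells into differentiation.

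The miR-306-5p reads that carry the result began at the same base and differed at their 3′ ends. They are shown 5′ to 3′ as DNA letters, as in the deposited tables, with the seed (bases 2 to 8) in capitals, so that the point at which each form stops can be compared with the full-length arm.
miR-306-5p, 16 nt: tCAGGTACttagtgac
miR-306-5p, 17 nt: tCAGGTACttagtgact
miR-306-5p, 18 nt: tCAGGTACttagtgactc
miR-306-5p, 19 nt: tCAGGTACttagtgactct
miR-306-5p, 21 nt: tCAGGTACttagtgactctca
miR-306-5p, 22 nt, mature arm: tCAGGTACttagtgactctcaa

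The 3p arm is shown in the 3 forms that took most of its reads, again with the seed in capitals.
miR-306-3p, 18 nt: gGGGGTCActctgtgcct
miR-306-3p, 21 nt: gGGGGTCActctgtgcctgtg
miR-306-3p, 22 nt, mature arm: gGGGGTCActctgtgcctgtgc

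Both 22 nt arms were found by their first 9 bases, recalled from the public miRNA catalogue, and by the annotated length of the arm, and exactly 1 read fitted each. The arms pair with a predicted duplex energy of -28.8 kcal/mol over 17 base pairs, with 3′ overhangs of 1 nt on the 5p arm and 2 nt on the 3p arm. None of 134 other arms tried with miR-306-5p gave a lower energy, and the lowest of them was -14.8 kcal/mol. The 5p seed, CAGGTAC, was shared with 1 other arm, miR-275-3p, and the 3p seed, GGGGTCA, with no other arm in these tables.

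In the BDGP6 annotation mir-306 (FBgn0262386) lies on the plus strand of chromosome 2L at 16698404 to 16698488, with the 5p arm at 16698418 to 16698439 and the 3p arm at 16698455 to 16698476. The locus overlaps 0 exons and sits in an intron (16698349 to 16698961) of grp, which encodes the checkpoint kinase Grapes. mir-79 and mir-9b share that intron, 65 and 255 bases downstream, and mir-9c lies 388 bases upstream in another grp intron. The deposited reads rest on the older build dm3, per the submitters' processing notes, and carry no positions, so these coordinates come from the annotation by gene name.

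The libraries held 12105527 reads at 30 days with oxidation, 17345816 at 30 days without, 2091252 at 3 days with and 16112748 at 3 days without. Counts were scaled to RPM (reads per 1000000 reads of the library), and 3 counts, the limit that a count of 0 allows, equal 0.248, 0.173, 1.43 and 0.186 RPM in that order of libraries. With 1 library per group no difference has a replicate check, the libraries and not the conditions are compared, and each bracketed range is an exact 95% interval for counting error only. RPM is relative: the arm miR-263a-5p alone took 50.5% of the reads with oxidation and 1.53% without at 30 days, and 31.6% with and 0.855% without at 3 days, and the median arm itself had a log2 oxidation ratio (RPM with oxidation over RPM without) of -1.28 at 30 days over 95 arms and -0.69 at 3 days over 98 arms. The age entry of 2 labels, those of the oxidized 3-day and the untreated 30-day library, contradicts their titles, and the titles were followed.

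miR-306-5p as a whole had a lower level with oxidation than without at both ages. It was counted 2795 times (231 RPM) with oxidation and 12763 times (736 RPM) without at 30 days, and 856 times (409 RPM) with oxidation and 10054 times (624 RPM) without at 3 days. The log2 oxidation ratio was -1.67 (-1.73 to -1.61) at 30 days, where 52.6% of 95 arms were at least 2-fold lower, and -0.61 (-0.71 to -0.51) at 3 days, where 43.9% of 98 arms were. Against the median arm the arm stood 0.39 lower on the log2 scale at 30 days and 0.08 higher at 3 days. At 30 days 54 arms had a higher ratio and 41 a lower one, and at 3 days 47 and 50, so the whole arm sat near the middle of all arms. Under 2 of the 3 other scalings its ratio at 3 days was close to 0, at -0.10 and -0.072.

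Reads of 16 to 17 nt and reads of 18 to 24 nt of miR-306-5p moved in opposite directions with oxidation. This split was chosen after seeing the data. Reads of 16 to 17 nt numbered 1555 (128 RPM) with oxidation and 284 (16.4 RPM) without at 30 days, and 528 (252 RPM) with oxidation and 207 (12.8 RPM) without at 3 days. Their log2 oxidation ratio was 2.97 (2.79 to 3.16) at 30 days, a 7.85-fold higher level, and 4.30 (4.06 to 4.54) at 3 days, a 19.7-fold higher level. Reads of 18 to 24 nt numbered 1240 (102 RPM) with oxidation and 12479 (719 RPM) without at 30 days, and 328 (157 RPM) with oxidation and 9847 (611 RPM) without at 3 days. Their log2 ratio was -2.81 (-2.90 to -2.73) at 30 days and -1.96 (-2.13 to -1.80) at 3 days. Both signs held under all 4 scalings of the libraries tried. The short class planned at first, 16 to 19 nt, had a log2 ratio of -0.19 (-0.26 to -0.11) at 30 days and 1.46 (1.33 to 1.59) at 3 days. Reads of 20 to 24 nt had -3.40 and -2.25 at those ages. With the planned split and scaling by total reads, both classes were thus lower with oxidation at 30 days, and their directions differed only at 3 days. The other scalings raised every log2 oxidation ratio at 30 days, by 1.19, 0.54 and 0.99. Under each of them the 16 to 19 nt class was higher with oxidation at 30 days and the 20 to 24 nt class lower. The direction of the planned short class at 30 days thus depends on the scaling. Whether reads this short also match another place in the genome was not tested.

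**Figure D1:**
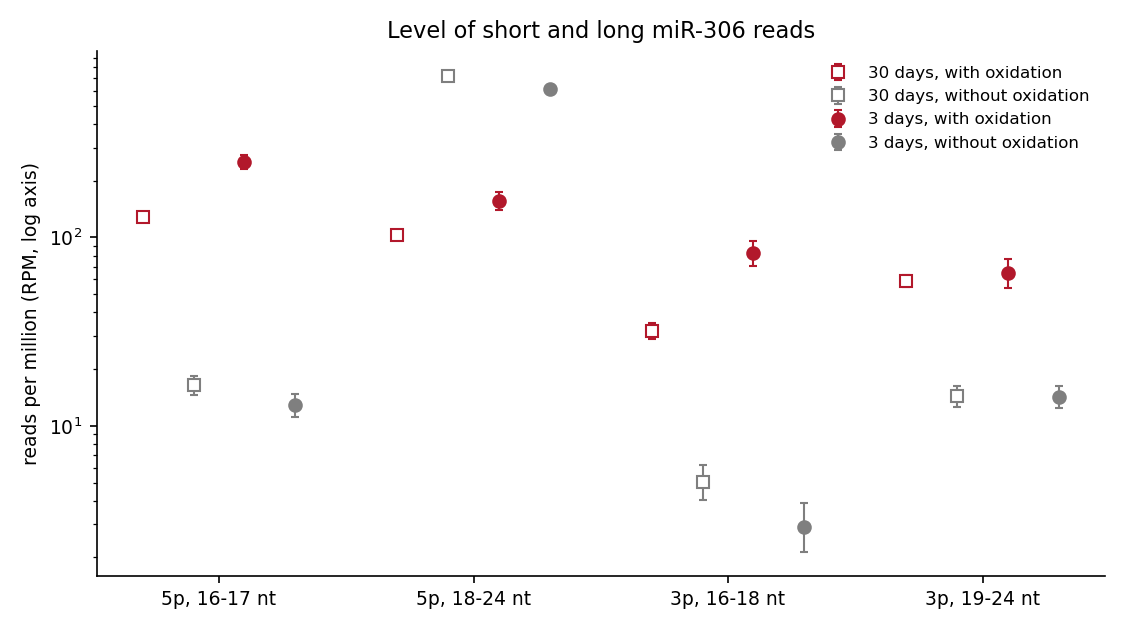
Level of short and long miR-306 reads in the 4 libraries, in RPM on a log axis, with exact 95% counting intervals; squares are 30 days and circles 3 days, red with oxidation and grey without. For the 5p arm the red points lie above the grey ones for reads of 16 to 17 nt (128 and 252 RPM against 16.4 and 12.8) and below them for reads of 18 to 24 nt. The 3p arm is divided at another length, into 16 to 18 nt and 19 to 24 nt, and its red points lie above the grey ones in both classes.

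As a share of the arm, reads of 16 to 17 nt made up 55.6% (53.8 to 57.5) with oxidation and 2.23% (1.98 to 2.50) without at 30 days. At 3 days they made up 61.7% (58.3 to 65.0) with oxidation and 2.06% (1.79 to 2.36) without. The planned class of 16 to 19 nt made up 78.2% with oxidation and 27.9% without at 30 days, and 73.6% with and 17.5% without at 3 days. Shares do not depend on how the libraries are scaled. The most abundant form was 17 nt long in both oxidized libraries and 21 nt long in both libraries without oxidation. The mean read length was 18.1 nt with oxidation and 20.5 nt without at 30 days, and 18.1 nt with oxidation and 20.7 nt without at 3 days.

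**Figure D2:**
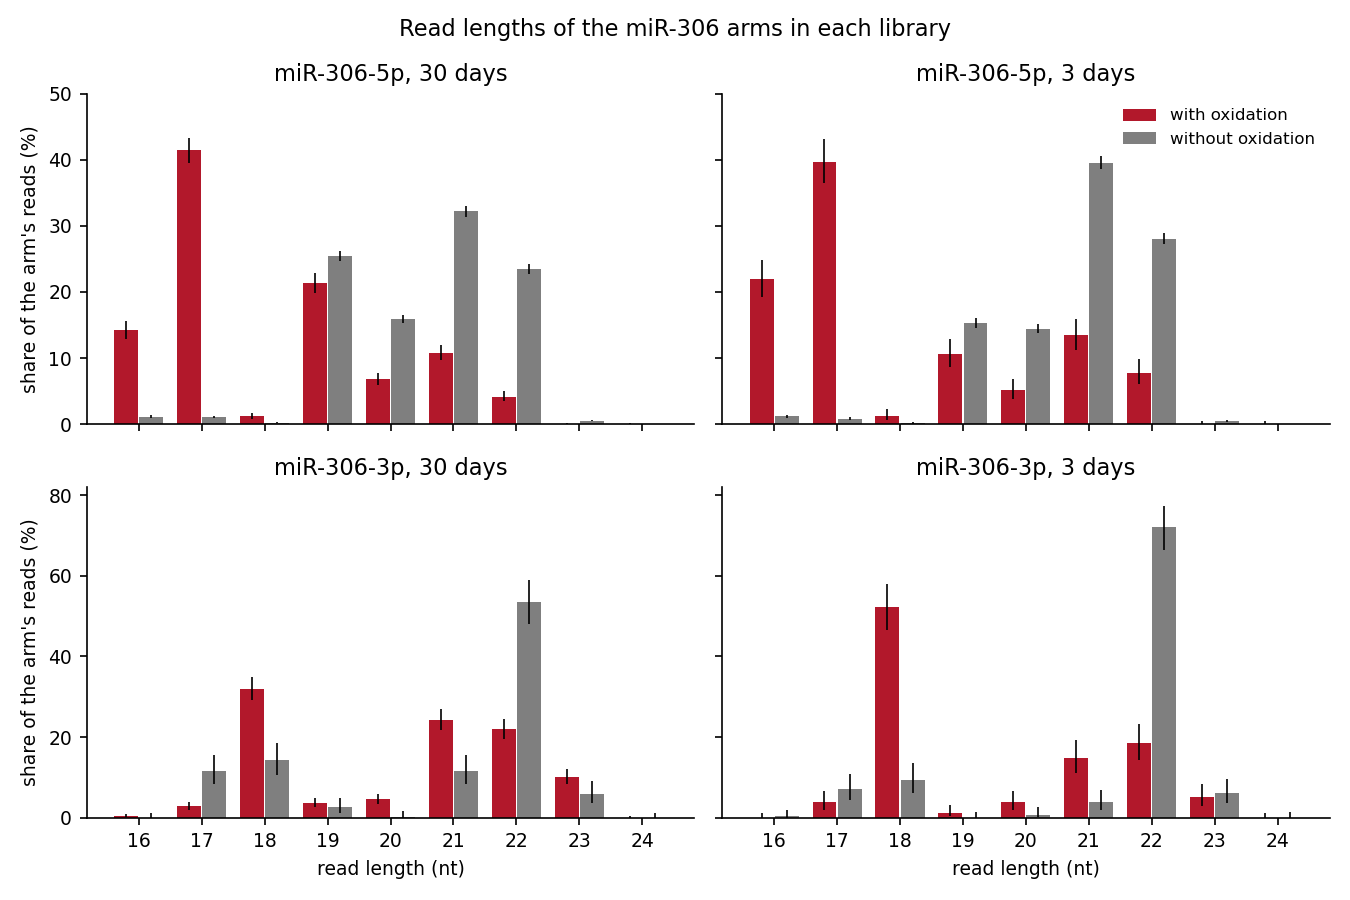
Share of each read length, in percent of the arm's reads at any start, for miR-306-5p (top) and miR-306-3p (bottom) at 30 days (left) and 3 days (right), red with oxidation and grey without, with exact 95% binomial intervals. The 5p arm peaks at 17 nt with oxidation and at 21 nt without; the 3p arm peaks at 18 nt with oxidation and at 22 nt without.

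Form by form, the 17 nt read of miR-306-5p, which stops 5 bases short of the mature end, had the highest oxidation ratio of the forms with the mature start. It was counted 1157 times with oxidation and 132 times without at 30 days, and 339 times with oxidation and 84 times without at 3 days. That is 41.4% against 1.03% of the arm at 30 days and 39.6% against 0.835% at 3 days, with and without oxidation in each pair. Its log2 oxidation ratio was 3.65 (3.39 to 3.92) at 30 days and 4.96 (4.61 to 5.32) at 3 days. The intervals of its share in the oxidized libraries, 39.6 to 43.2 at 30 days and 36.3 to 43.0 at 3 days, overlap.

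The 16 nt form followed, with 368 reads with oxidation and 138 without at 30 days, and 187 with and 120 without at 3 days. It held 13.2% of the arm with oxidation and 1.08% without at 30 days, and 21.8% with and 1.19% without at 3 days, and its log2 ratio was 1.93 (1.65 to 2.23) at 30 days and 3.59 (3.25 to 3.93) at 3 days. The 18 nt form was rare everywhere. It had 31 reads with oxidation and 21 without at 30 days and 11 with and 16 without at 3 days, and a log2 ratio of 1.08 (0.24 to 1.95) at 30 days and 2.41 (1.15 to 3.60) at 3 days. The direction of the oxidation ratio turned between 18 and 19 nt.

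The 19 nt form was abundant without oxidation and did not gain from it. It had 594 reads (21.3% of the arm) with oxidation and 3248 (25.4%) without at 30 days, and 91 reads (10.6%) with and 1527 (15.2%) without at 3 days, with a log2 ratio of -1.93 (-2.06 to -1.81) at 30 days and -1.12 (-1.44 to -0.82) at 3 days. From there the depletion deepened with length at both ages. The 20 nt form had a log2 ratio of -2.89 at 30 days and -2.09 at 3 days, and the 21 nt form -3.26 (-3.43 to -3.09) and -2.16 (-2.45 to -1.90) at the same ages. The mature 22 nt form was the lowest of the forms of 16 to 22 nt with the mature start, with 117 reads with oxidation and 2992 without at 30 days, 67 with and 2821 without at 3 days, and a log2 ratio of -4.16 (-4.44 to -3.89) at 30 days and -2.45 (-2.82 to -2.10) at 3 days. The intervals of the 20, 21 and 22 nt forms overlap at 3 days and those of the 22 nt form lie below the others at 30 days. The 23 nt form had 2 reads with oxidation and 69 without at 30 days, a log2 ratio of -4.59 (-7.66 to -2.68) whose interval includes that of the 22 nt form. At 3 days it had 0 reads with and 44 without, and the upper 95% limit of its log2 ratio was -0.57.

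**Figure D3:**
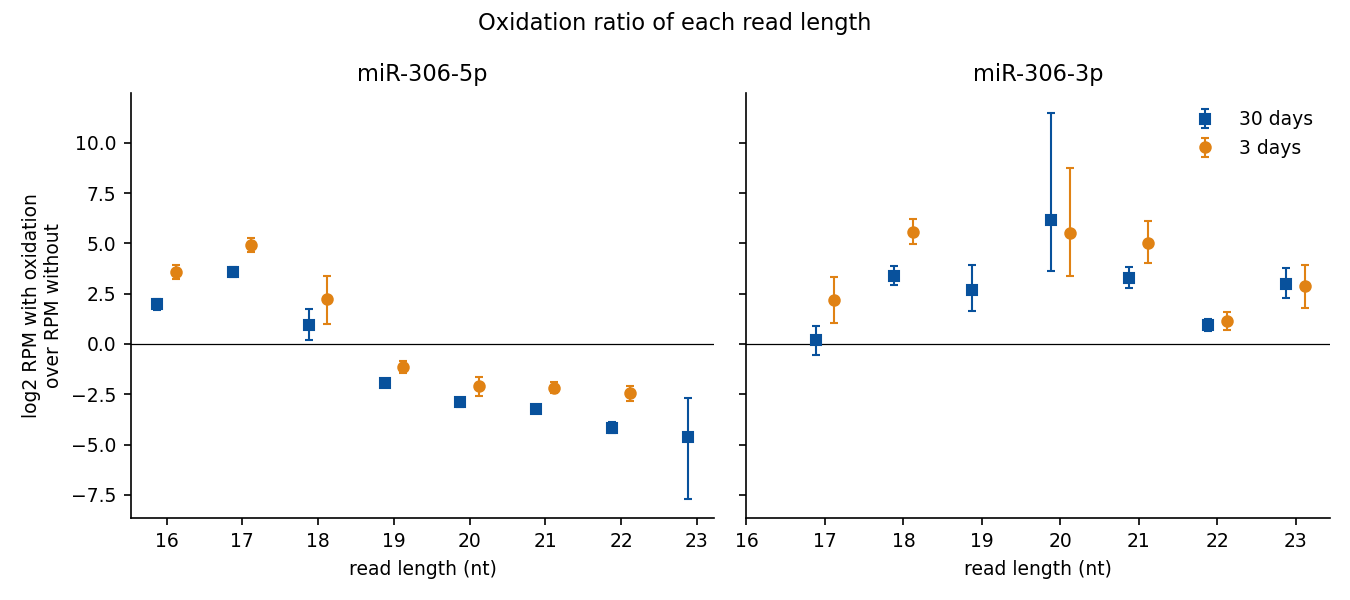
Log2 oxidation ratio (RPM with oxidation over RPM without) of each read length at any start for miR-306-5p (left) and miR-306-3p (right), blue squares at 30 days and orange circles at 3 days, with exact 95% counting intervals, for lengths with at least 50 reads over the 4 libraries; a length with 0 reads in either library of a pair has no point. The 5p ratio is above 0 at 16 to 18 nt and below 0 from 19 nt on, and the 3p ratio is above 0 at every length plotted, with an interval that includes 0 at 17 nt at 30 days.

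Most short 5p reads kept the 5′ end of the mature arm. Reads with another start were 1.32% of the arm with oxidation and 0.376% without at 30 days, and 0.234% with and 0.219% without at 3 days. The largest of these groups was a 16 nt read that began 1 base later and ended at the same base as the 17 nt form, with 28 reads with oxidation and 1 without at 30 days and 1 with and 0 without at 3 days. The percentages above are of the arm at all lengths. Of its 16 nt reads, 368 of 398 with oxidation and 138 of 145 without had the mature start at 30 days. At 3 days 187 of 188 and 120 of 121 had it. For 17 nt reads these were 1157 of 1157 and 132 of 139 at 30 days, and 339 of 340 and 84 of 86 at 3 days. Most short reads thus kept the mature start and seed, and what mainly varied was the 3′ end. No sequence in the tables lay 1 mismatch from a member. Whether reads with a mismatch were removed before deposit was not tested, so this absence says nothing about sequence variants or added 3′ bases. Reads that ran past the mature 3′ end were 0.0716% of the arm with oxidation and 0.548% without at 30 days, and 0% with and 0.448% without at 3 days.

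The contrast within the arm can be given free of library scaling, as the oxidation ratio of the short reads over that of the long reads. For reads of 16 to 17 nt against 18 nt or more, this excess was 5.78 on the log2 scale (5.58 to 5.98) at 30 days and 6.26 (5.98 to 6.54) at 3 days, or 55.1-fold and 76.6-fold. The excess at 30 days was lower than that at 3 days by a log2 difference of -0.47 (-0.82 to -0.13). For reads of 16 to 19 nt against 20 nt or more, the excess was 3.21 (3.07 to 3.35) at 30 days and 3.71 (3.48 to 3.95) at 3 days. The lower value of the wider class goes with the 19 nt form, which had 594 of its 2185 reads at 30 days with oxidation and 3248 of its 3564 without.

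Among all arms with enough short and long reads, an excess was common. With the split chosen after seeing the data, that of miR-306-5p was the highest, and with the planned split it was not. For 16 to 17 nt reads it ranked 1 of 66 arms at 30 days, where 56.1% of arms had an excess of at least 2-fold and the median was 1.67, and 1 of 48 arms at 3 days, where 60.4% did and the median was 1.87. Since miR-306 was chosen for this property, the rank is a description. The next arms were miR-9c-5p (5.13), bantam-3p (5.07), miR-307a-3p (4.92) and miR-999-3p (4.73) at 30 days, and miR-278-3p (5.90), miR-999-3p (5.46), miR-9c-5p (5.30) and miR-9a-5p (5.21) at 3 days. For 16 to 19 nt reads miR-306-5p ranked 6 of 94 at 30 days, where 46.8% of arms had an excess of at least 2-fold, and 9 of 79 at 3 days, where 51.9% did. The highest named arms by that wider class were miR-9c-5p (5.04 at 30 days, 4.55 at 3 days) and miR-999-3p (4.24 and 4.49 at the same ages).

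**Figure D4:**
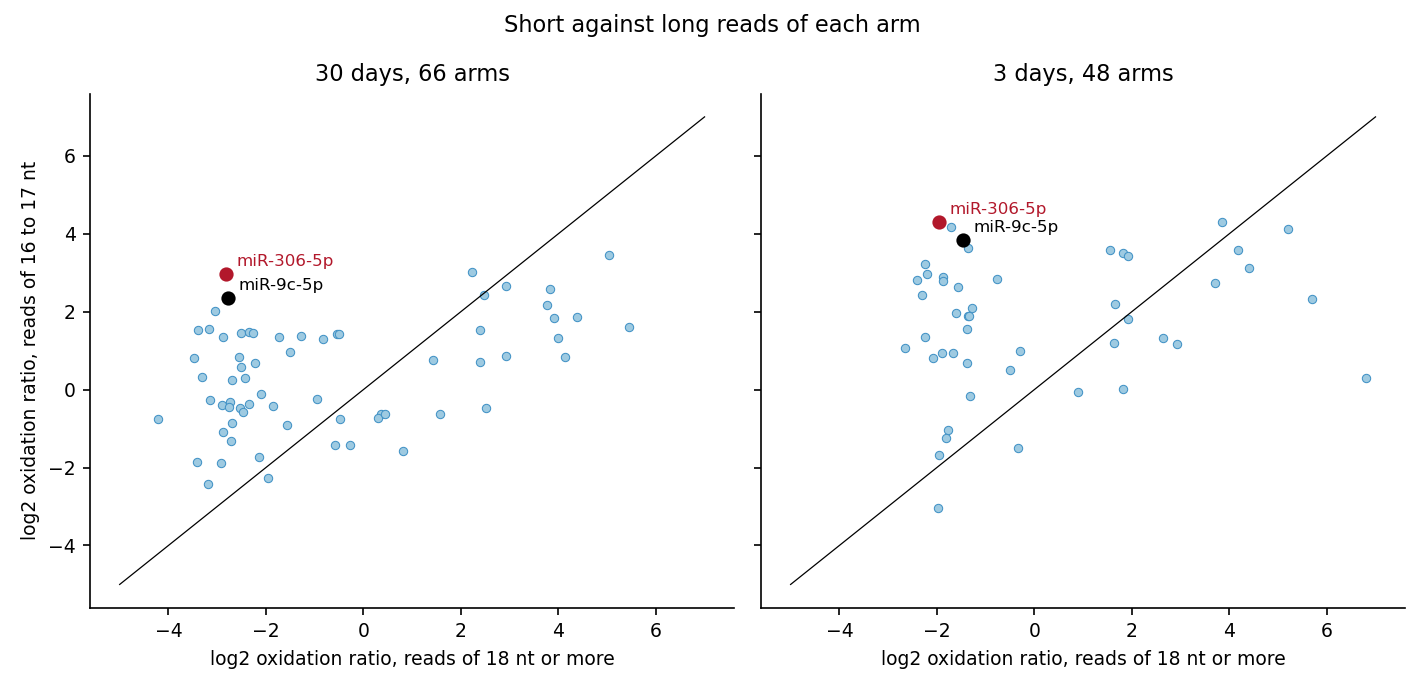
Log2 oxidation ratio of reads of 16 to 17 nt (vertical) against that of reads of 18 nt or more (horizontal) for each arm with a mean of at least 100 RPM, at least 50 reads in each class and no library at 0, at 30 days (left, 66 arms) and 3 days (right, 48 arms); the line marks equal ratios. miR-306-5p (red) lies farthest above the line at both ages, by 5.78 at 30 days and 6.26 at 3 days on the log2 scale.

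Length for length, few arms had a higher excess than miR-306-5p at 16 to 18 nt, and many did at 19 nt. Ratios by length were among the values miR-306 was selected on, so these ranks are a description. Against its own reads of 20 nt or more, the 17 nt reads of miR-306-5p had an excess of 6.97 (6.69 to 7.25) at 30 days, with 0 of 48 arms higher and a median of 1.55, and 7.18 (6.79 to 7.57) at 3 days, with 1 of 41 arms higher and a median of 1.30. The 16 nt reads had 5.37 at 30 days (0 of 51 arms higher) and 5.83 at 3 days (2 of 33 higher). The 18 nt reads had 4.34 (3.60 to 5.09) at 30 days, with 2 of 66 arms higher. At 3 days they had 4.49 (3.39 to 5.59), with 4 of 49 higher, from 11 reads with oxidation and 18 without. For 19 nt reads the excess was 1.46 at 30 days and 1.12 at 3 days, and 27 of 83 and 27 of 62 arms were higher at those ages.

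The share of 16 to 17 nt reads in miR-306-5p was the highest of 98 arms in the oxidized libraries and not in the others. Shares of short 5p reads were among the values miR-306 was selected on, so this rank is a description. Over 98 arms the median share was 0.483% with oxidation and 0.303% without at 30 days, and 0.304% with and 0.162% without at 3 days. The arm next to miR-306-5p in the oxidized libraries was miR-279-3p, with 13.3% at 30 days and 15.3% at 3 days. Without oxidation 13 arms at 30 days and 12 at 3 days had a higher share than miR-306-5p. Its own share there was 2.23% at 30 days and 2.06% at 3 days, above the median at both ages.

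The rank of the whole arm moved with these short reads. Without them its log2 oxidation ratio was -2.81 at 30 days and -1.96 at 3 days, with 16 of the 95 and 16 of the 98 arms lower. With them 41 arms were lower at 30 days and 50 at 3 days. Leaving out 16 to 17 nt reads from every arm moved miR-306-5p by -1.14 at 30 days and -1.35 at 3 days, and 0 other arms fell by more. The move follows from the shares of short reads on which miR-306 was selected, so it is a description.

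miR-306-3p, the rarer arm, had a higher level with oxidation than without at both ages. It was counted 1098 times (90.7 RPM) with oxidation and 336 times (19.4 RPM) without at 30 days, and 308 times (147 RPM) with and 276 times (17.1 RPM) without at 3 days. The log2 oxidation ratio was 2.23 (2.05 to 2.41) at 30 days, where 29.5% of arms reached a 2-fold higher level, and 3.10 (2.86 to 3.34) at 3 days, where 35.7% were. The arm itself lay under the mean of 100 RPM that the arms so counted had to reach in either pair, and 21 of the 95 arms at 30 days and 18 of the 98 at 3 days had a higher ratio.

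The 3p arm took a much larger part of the hairpin's reads after oxidation. Its share of all miR-306 reads was 28.2% (26.8 to 29.6) with oxidation and 2.57% (2.30 to 2.85) without at 30 days, and 26.5% (23.9 to 29.1) with and 2.67% (2.37 to 3.00) without at 3 days. The intervals of the 2 ages overlap with either treatment. The short 5p reads and the 3p arm together thus made up most of the hairpin's reads in the oxidized libraries.

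The oxidation ratio differed between the 3p forms, and the most abundant form in the oxidized libraries was 18 nt long. It had 351 reads (32.0% of the arm) with oxidation and 48 (14.3%) without at 30 days, and 161 (52.3%) with and 26 (9.42%) without at 3 days, with a log2 ratio of 3.39 (2.95 to 3.86) at 30 days and 5.58 (4.97 to 6.23) at 3 days. The 21 nt form had 267 reads with oxidation and 39 without at 30 days and 46 with and 11 without at 3 days, with log2 ratios of 3.29 (2.81 to 3.82) and 5.01 (4.04 to 6.11) at those ages. The mature 22 nt form, the most abundant without oxidation, had the lowest ratio among forms of 18 to 23 nt with the mature start and reads in both libraries, with 240 reads with oxidation and 179 without at 30 days, 57 with and 198 without at 3 days, and log2 ratios of 0.94 (0.66 to 1.23) and 1.15 (0.70 to 1.58). The form that stops 1 base short of the mature 3′ end thus had a higher oxidation ratio than the mature form at both ages.

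The other 3p forms had fewer reads. The 20 nt form had 50 reads with oxidation and 1 without at 30 days and 12 with and 1 without at 3 days, with wide intervals of its log2 ratio, 3.62 to 11.5 and 3.77 to 11.9. The 23 nt form had 112 reads with oxidation and 20 without at 30 days and 16 with and 17 without at 3 days, which is 10.2% of the arm with oxidation and 5.95% without at 30 days and 5.19% with and 6.16% without at 3 days. Its log2 ratio of 3.00 (2.31 to 3.77) at 30 days and 2.86 (1.78 to 3.93) at 3 days was higher than that of the 22 nt form at both ages. The 19 nt form had 41 reads with oxidation and 8 without at 30 days and 4 with and 0 without at 3 days, where the lower 95% limit of its log2 ratio was 2.35. The 17 nt form had 31 reads with oxidation and 38 without at 30 days and 11 with and 20 without at 3 days. With scaling by total reads its log2 ratio at 30 days was 0.23 (-0.51 to 0.95), an interval that includes no change. Over the 4 scalings tried this ratio ran from 0.23 to 1.42. Reads of 16 to 18 nt against 19 nt or more had an excess of 0.64 (0.24 to 1.03) at 30 days and 2.64 (2.09 to 3.20) at 3 days, a difference of -2.003 (-2.69 to -1.32) between the ages. With the split used for the 5p arm, 16 to 17 nt against 18 nt or more, the sign was the opposite. The excess was then -1.95 (-2.63 to -1.27) at 30 days and -1.02 (-2.07 to 0.03) at 3 days.

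Without oxidation the totals of both miR-306 arms differed little between the ages, while single forms differed more. The 5p arm had 736 RPM at 30 days and 624 RPM at 3 days, a log2 ratio of 0.24 (0.20 to 0.28), where 5.26% of 95 arms reached a 2-fold higher level and 4.21% a 2-fold lower one. The 3p arm had 19.4 RPM at 30 days and 17.1 RPM at 3 days, a log2 ratio of 0.18 (-0.06 to 0.41). Within the 5p arm the forms differed. The 19 nt read had 187 RPM at 30 days and 94.8 RPM at 3 days, a log2 ratio of 0.98 (0.89 to 1.07), whereas the 21 nt read had 237 and 247 RPM at those ages (-0.06) and the 22 nt read 172 and 175 RPM (-0.02). The 17 nt form, with 7.61 RPM at 30 days and 5.21 RPM at 3 days, had 0.55 (0.14 to 0.96), and the 20 nt form, with 116 and 89.8 RPM, had 0.37 (0.27 to 0.47). Within the 3p arm the mature 22 nt form held 53.3% (47.8 to 58.7) at 30 days and 71.7% (66.0 to 77.0) at 3 days. Its 21 nt form had 39 reads at 30 days and 11 at 3 days, a log2 ratio of 1.72 (0.73 to 2.83), and its 18 nt form had 48 reads at 30 days and 26 at 3 days, a log2 ratio of 0.78 (0.06 to 1.53).

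In the oxidized libraries the 5p arm had 231 RPM at 30 days and 409 RPM at 3 days, a log2 ratio of -0.83 (-0.94 to -0.71), where 27.1% of 96 arms reached a 2-fold lower level and 0% a 2-fold higher one. The 3p arm had 90.7 RPM at 30 days and 147 RPM at 3 days, or -0.70 (-0.88 to -0.51). The median arm was at -0.65, and the 5p arm stood -0.17 and the 3p arm -0.05 from it. The age change of the oxidation ratio was -1.06 (-1.18 to -0.95) for the 5p arm, where 29.6% of 98 arms were at least 2-fold lower, and -0.88 (-1.17 to -0.58) for the 3p arm, against a median of -0.77. With trimmed-mean (TMM) scaling both comparisons turned round, to 0.44 and 0.57 for 30 over 3 days with oxidation and 0.26 and 0.45 for the age change, for the 5p and the 3p arm in turn. The direction of these age comparisons thus depends on the scaling.

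The assigned arms of the genomic neighbours were lower after oxidation except for miR-79-3p. miR-9c-5p had 337 RPM with oxidation and 2116 RPM without at 30 days and 1488 RPM with and 3687 RPM without at 3 days, and its 16 to 17 nt reads made up 9.28% with and 0.292% without at 30 days and 10.4% with and 0.293% without at 3 days. miR-9b-5p had a log2 oxidation ratio of -2.83 at 30 days and -2.49 at 3 days, with 8 and 19 short reads at 30 days and 11 and 16 at 3 days, with and without oxidation in each pair. miR-79-3p had 27.8 RPM with oxidation and 13.5 RPM without at 30 days and 36.8 RPM with and 14.1 RPM without at 3 days, a log2 ratio of 1.03 (0.79 to 1.28) and 1.39 (0.99 to 1.76). miR-79-5p was rare, at 0.743 RPM with oxidation and 3.06 RPM without at 30 days, and 0 reads with and 3.91 RPM without at 3 days. Without oxidation miR-9c-5p was lower at 30 days than at 3 days by a log2 ratio of -0.80, while miR-306-5p was 0.24 higher.

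miR-275-3p has the seed of miR-306-5p and a log2 oxidation ratio of -2.32 at 30 days and -0.87 at 3 days, yet hardly any short reads. It had 2 reads of 16 to 17 nt with oxidation and 16 without at 30 days, and 1 with and 4 without at 3 days, which is 0.105% and 0.117% of its reads at 30 days and 0.161% and 0.0457% at 3 days. The high share of short reads was thus not common to both arms with this seed.

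By Euclidean distance over 3 log2 ratios (oxidation at 30 days, oxidation at 3 days, and 30 over 3 days without oxidation), the arms nearest to miR-306-5p were miR-10-3p (0.270), miR-993-5p (0.468), miR-283-5p (0.475), miR-281-1-5p (0.669) and miR-275-3p (0.760), against a median of 2.12 over 97 arms. The nearest named arms to miR-306-3p were miR-995-3p (0.631), miR-252-5p (0.710) and miR-276a-5p (0.740), against a median of 5.05 over 98 arms. The distances describe these 4 libraries, which all the ratios share.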

How the data were processed

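The authors deposited 1 table of raw counts per library, each row pairing a read with its count, and no names or positions. Per the labels' protocols, libraries were made with the TruSeq small RNA kit from head RNA with or without oxidation. The submitters' processing notes list CASAVA 1.8.2, Bowtie and the build dm3 without roles, and adapter trimming is not described in the labels. Repeated rows (85 to 195 per library, 0 with unequal counts) were counted once.

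RPM values were computed here from the library totals. Reads overlapping without mismatch over at least 15 nt within 34 nt formed 481 arms. Of these, 67 were named from first bases (8 to 10) recalled from the public catalogue, since no miRNA sequences or genome were used here as a reference, so a short read could also arise elsewhere in the genome. The 32 sequences that fitted several arms (at most 0.00470% of a library) and 14 over 30 nt were left out. Arms entered a comparison when its libraries averaged 100 RPM or more and held 50 reads. The arms of miR-9b and miR-9c on the 3p side were not assigned. Intervals are exact Clopper-Pearson 95% intervals, for ratios conditional on the summed count; differences of log2 ratios and excesses use Poisson variances. Reads carry no molecular identifiers.

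The members, forms and comparisons were chosen with earlier results of these data known. Forms named have at least 1% of their arm in a library and 50 reads; the 23 nt 5p form and the shifted 16 nt read were named after their values were seen. Other arms named are the neighbours mir-79, mir-9b and mir-9c, the 5 nearest, and the 5 with the largest excess at each age; miR-275-3p also shares the seed, and miR-279-3p was added after its values were seen. No test was made. The placing of reads on an arm, the ratios and their intervals were tested on simulated data. Software was Python 3.11.15, numpy 2.4.6, scipy 1.17.1, matplotlib 3.10.9, ViennaRNA 2.7.2, R 4.3.3 and edgeR 4.0.16, used for TMM factors only.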

Additional observations from a re-analysis of the deposited data

How the results depend on the processing

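Counting every repeated row, taking reads of any length and requiring the mature 5′ end moved the values they applied to by less than their 95% counting intervals. Filtering at 100 RPM on the library without oxidation gave 20 of 93 arms at least 2-fold higher and 56 lower at 30 days, against 28 and 50 of 95, and 25 of 95 higher and 50 lower at 3 days, against 35 and 43 of 98; filtering on the 3-day library moved the age counts by at most 2 arms. Another scaling moved the totals. Under median-of-ratios scaling, TMM scaling and totals without miR-263a-5p, in this order, the log2 oxidation ratio of miR-306-5p was -0.48, -1.13 and -0.68 at 30 days and -0.10, -1.40 and -0.072 at 3 days, and that of miR-306-3p was 3.42, 2.76 and 3.22 at 30 days and 3.62, 2.31 and 3.64 at 3 days. The age change of the ratio was -0.38, 0.26 and -0.61 for the 5p arm and -0.20, 0.45 and -0.42 for the 3p arm; 30 over 3 days with oxidation was -0.14, 0.44 and -0.36 for the 5p arm and -0.018, 0.57 and -0.23 for the 3p arm, so both turned round with TMM. TMM gave 0.17 for the 5p arm at 30 over 3 days without oxidation. These settings shift the median arm by 1.19, 0.54 and 0.99 at 30 days and 0.51, -0.79 and 0.54 at 3 days. A scaling shifts every arm by the same amount, so the distance of miR-306-5p from the median arm could not change.

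With an overlap of at least 18 nt, which drops the 16 to 17 nt reads, the 5p oxidation ratio was -2.81 at 30 days and -1.96 at 3 days, its age change -0.85 and 30 over 3 days with oxidation -0.62. The share of reads up to 19 nt was 50.9% with and 26.3% without oxidation at 30 days and 31.1% with and 15.8% without at 3 days, the excess 1.54 at 30 days and 1.27 at 3 days, and the 3p share of the hairpin in the oxidized libraries 46.2% at 30 days and 47.4% at 3 days. Leaving out 16 to 17 nt reads gave -2.81 and -1.96 at those ages. Short reads taken as 16 to 20 nt were 85.0% with and 43.8% without oxidation at 30 days and 78.7% with and 31.9% without at 3 days, with an excess of 2.86 and 2.98; as 16 to 18 nt they were 56.9% with and 2.43% without at 30 days and 63.0% with and 2.24% without at 3 days, with 5.73 and 6.21; as 16 to 17 nt, 55.6% with and 2.23% without and 61.7% with and 2.06% without, with 5.78 and 6.26. The settings that use 16 to 17 nt were chosen after seeing the data.

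A lower filter let more arms into each comparison, and the counts of arms at least 2-fold apart are given here at 10 RPM and with no filter. At 30 days 45 of 153 and 61 of 198 arms were higher with oxidation and 78 and 98 lower. At 100 RPM these were 28 and 50 of 95. At 3 days 62 of 166 and 66 of 186 were higher and 72 and 82 lower, against 35 and 43 of 98 at 100 RPM. Without a filter 9 of 203 were higher and 10 lower at 30 than at 3 days without oxidation. With oxidation 1 of 152 and 5 of 173 were higher and 47 and 54 lower. Under the 3 scalings in the order above, 6, 32 and 3 of 96 arms were higher and 10, 1 and 14 lower.

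No paired analysis was possible because each group has 1 library, and for the same reason no replicate was left out. Matching whole reads to the hairpin was not run, since no hairpin sequence was used here. Depth limits the rare forms most in the 3-day oxidized library.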
